A study of Mus musculus with 6 samples.

Results

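Clustered and linker histone genes were followed across 3 mouse cancer cell lines, each with a single sh Ctrl array and a single sh Spp1 array. All probe sets (groups of array probes read as 1 value) with a single gene symbol of the H1f, H2ac, H2bc, H3c or H4c series were taken. That gave 30 of 41345 probe sets, for 29 genes: 8 for the linker histone H1, 7 for H2A, 8 for H2B, 0 for H3 and 7 for H4. H3 was not among them because each H3 probe set carried several symbols. A further 37 probe sets carried several symbols that were all histones, and 3 of these repeated another's values exactly, which left 34 distinct ones. They are described by type only.

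The lines are LLC (a Lewis lung carcinoma), AE17 (labelled malignant mesothelioma) and MC38 (labelled colon adenocarcinoma). Culture medium held 10% fetal bovine serum, and total RNA was measured on 1-colour arrays. The sh Spp1 cells are labelled as depleted of Spp1, which encodes the secreted protein osteopontin, by a short hairpin RNA. The sh Ctrl cells are also labelled wild type, so the labels do not settle whether they carried a control hairpin. Whether a line is 1 clone or a pool is not given in the sources used here. None of the named probe sets is for Spp1 (0 found), so every direction below rests on the labels. No replicate array of a line with the same label was used, so each ratio within a line sets 1 array against 1, and p-values over the lines measure only the spread between them.

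Histones are the proteins around which DNA is wound: H2A, H2B, H3 and H4 form the core of the nucleosome, and H1 binds the linker DNA at its edge. Most of their genes lie in clusters, are transcribed in S phase, and give short transcripts that end in a stem-loop in place of a poly(A) tail. The stem-loop binding protein Slbp carries these transcripts through processing and translation. Gene copies of a type encode almost the same protein and share much sequence, so a probe set can also take signal from a copy it does not name. How much it does was not tested.

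The promoters below are printed because they belong to the members on which the results turn. H2bc12 and H4c9 had the 2 highest AE17 ratios of all members. H2bc3 and H4c12 are copies of the same types without such a ratio, and H1f5 is an S phase linker histone. The sequences are RefSeq's for assembly GRCm38.p6, running from 250 bases before the start to 50 after it, and 27 of the 29 genes had one. Capitals mark 5 short motifs on either strand: the TATA box TATAAA, the CCAAT box, the octamer ATTTGCAT (read by Oct1 in H2B genes), the H1 element AAACACA, and GGTCCG, a core of the H4 promoter element bound by Hinfp. No motif of these contains another. The last motif was added after these promoters had been read, so its share among H4 genes is no independent observation. The windows are H2bc12 at chr13:22035571-22035870, plus strand, H2bc3 at chr13:23746484-23746783, plus strand, H4c9 at chr13:22041313-22041612, minus strand, H4c12 at chr13:21750504-21750803, minus strand and H1f5 at chr13:21780576-21780875, minus strand.
H2bc12: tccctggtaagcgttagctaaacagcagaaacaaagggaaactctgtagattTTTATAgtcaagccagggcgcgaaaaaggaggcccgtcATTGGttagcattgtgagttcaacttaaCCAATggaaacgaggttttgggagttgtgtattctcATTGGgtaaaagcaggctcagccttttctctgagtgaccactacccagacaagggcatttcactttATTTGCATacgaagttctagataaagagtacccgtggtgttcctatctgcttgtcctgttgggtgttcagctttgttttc
H2bc3: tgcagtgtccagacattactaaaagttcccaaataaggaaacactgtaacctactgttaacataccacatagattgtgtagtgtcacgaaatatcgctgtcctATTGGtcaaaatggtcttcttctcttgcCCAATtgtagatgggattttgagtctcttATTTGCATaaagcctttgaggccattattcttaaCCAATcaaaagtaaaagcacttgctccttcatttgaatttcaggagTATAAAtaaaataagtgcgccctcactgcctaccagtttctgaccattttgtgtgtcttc
H4c9: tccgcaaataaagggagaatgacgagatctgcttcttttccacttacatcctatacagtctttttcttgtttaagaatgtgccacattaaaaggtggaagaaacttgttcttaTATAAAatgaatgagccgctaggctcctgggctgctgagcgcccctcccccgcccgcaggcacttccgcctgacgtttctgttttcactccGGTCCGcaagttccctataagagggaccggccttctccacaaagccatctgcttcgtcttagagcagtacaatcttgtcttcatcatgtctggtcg
H4c12: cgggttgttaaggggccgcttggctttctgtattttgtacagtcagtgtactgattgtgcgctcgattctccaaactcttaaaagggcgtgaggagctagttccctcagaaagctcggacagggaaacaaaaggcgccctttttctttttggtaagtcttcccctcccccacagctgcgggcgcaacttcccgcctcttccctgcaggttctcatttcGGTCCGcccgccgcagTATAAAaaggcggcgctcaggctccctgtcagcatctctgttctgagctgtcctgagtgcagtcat
H1f5: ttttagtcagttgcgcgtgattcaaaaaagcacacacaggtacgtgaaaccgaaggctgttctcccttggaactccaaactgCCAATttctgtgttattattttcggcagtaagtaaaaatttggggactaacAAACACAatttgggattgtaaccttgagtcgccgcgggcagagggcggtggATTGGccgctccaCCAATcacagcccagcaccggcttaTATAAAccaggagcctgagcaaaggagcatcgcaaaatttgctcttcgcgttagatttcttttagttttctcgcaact

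The motifs differed between histone types. Of the 27 promoters, 16 (59.3%) held TATAAA against 13.6% of the 32851 RefSeq promoters of the same length. CCAAT was present in 20 (74.1%) against 37.4%. The octamer stood in 8 (29.6%) against 1.74%, in 5 of 7 H2B and 3 of 6 H2A promoters and in 0 of the H1 and H4 promoters. AAACACA was found in 7 (25.9%) against 7.18%, 4 of them among the 8 H1 promoters, and GGTCCG in 7 (25.9%) against 8.25%, 5 of them among the 6 H4 promoters. These matches describe letters, not bound sites. H2bc12 and H2bc3 both hold the octamer and CCAAT, and H4c9 and H4c12 both hold GGTCCG and TATAAA. The positions differ: TATAAA lies at -137 from the start in H4c9 and at -16 in H4c12. The AE17 ratios differed within each pair, and the part of the motifs in this was not tested. The windows of H2bc12 and H2ac12, which are read in opposite directions, share 277 bases. Those of H2bc1 and H2ac1 overlap in the same way. In both pairs the same octamer is counted for each gene, and so are a TATAAA and CCAAT boxes. The TATAAA marked in H2bc12 is that of H2ac12, read on the other strand. The AAACACA of H2bc1 and H2ac1 is shared too. The counts above are thus of promoters and not of separate sites.

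Over the 3 lines, no histone probe set passed the test. The shRNA term was fitted by limma on the log2 quantile-normalised intensities of all 17757 probe sets with 1 symbol whose mean reached the 30th percentile, with the line as a block. This floor was 4.49 log2, and 24 of the 30 histone probe sets reached it, 21 of them on all 6 arrays. At a Benjamini-Hochberg adjusted p of 0.05 limma called 0 of the 24 histone probe sets, and 0% of all those tested (0 of 17757). At an unadjusted p under 0.05 limma counted 6 of the 24 and 1145 of all (6.45%). The smallest adjusted p of a histone probe set was 0.706 by limma, and it lay between 0.129 and 0.932 over the alternative settings.

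Within the lines, the histone genes stood highest in AE17. Their median log2 ratio of sh Spp1 over sh Ctrl there was 1.16, against -0.04 for all probe sets tested. In AE17 17 of 24 lay above 0, against 47.5% of all. In LLC the histone median was -0.08 beside 0.03 for all, with 11 of 24 above 0 against 53.4%. In MC38 it was 0.22 beside 0.02, with 17 of 24 above 0 against 52.6%. Without the floor the medians of the 30 were 0.02 (LLC), 0.87 (AE17) and 0.24 (MC38). The AE17 ratio was the highest of the 3 lines for 17 of the 24 (70.8%), against 35.5% of all probe sets tested. That count was also 17 for the values as deposited, and for arrays centred on their medians. The 35.5% of all holds for quantile normalisation only. The sign of LLC ratios hung on the scaling: the LLC histone median was -0.47 as deposited and 0.32 centred, where the median of all was -0.47 and 0.32, while the AE17 histone median was 1.27 and 1.72 beside -0.24 and 0.22.

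Counts by size gave the same order. A log2 ratio of at least 1, among probe sets that reached the floor on 1 or both arrays of the line, was found for 14 of 24 histone probe sets in AE17 (58.3%) and for 9.75% of all. None was lower by that much in AE17 (0 of 24), against 8.44% of all. In LLC 1 of 24 was higher, against 1.87% of all, and 0 were lower, against 1.68%. In MC38 2 of 23 were higher, against 1.0% of all, and 0 were lower, against 1.65%. The AE17 arrays stand apart: all probe sets had an SD of 0.93 there, against 0.45 in LLC and 0.43 in MC38, and the arrays of a pair correlated at r = 0.939 in AE17, 0.979 in LLC and 0.982 in MC38. These correlations run over probe sets, which are not independent replicates.

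**Figure D1:**
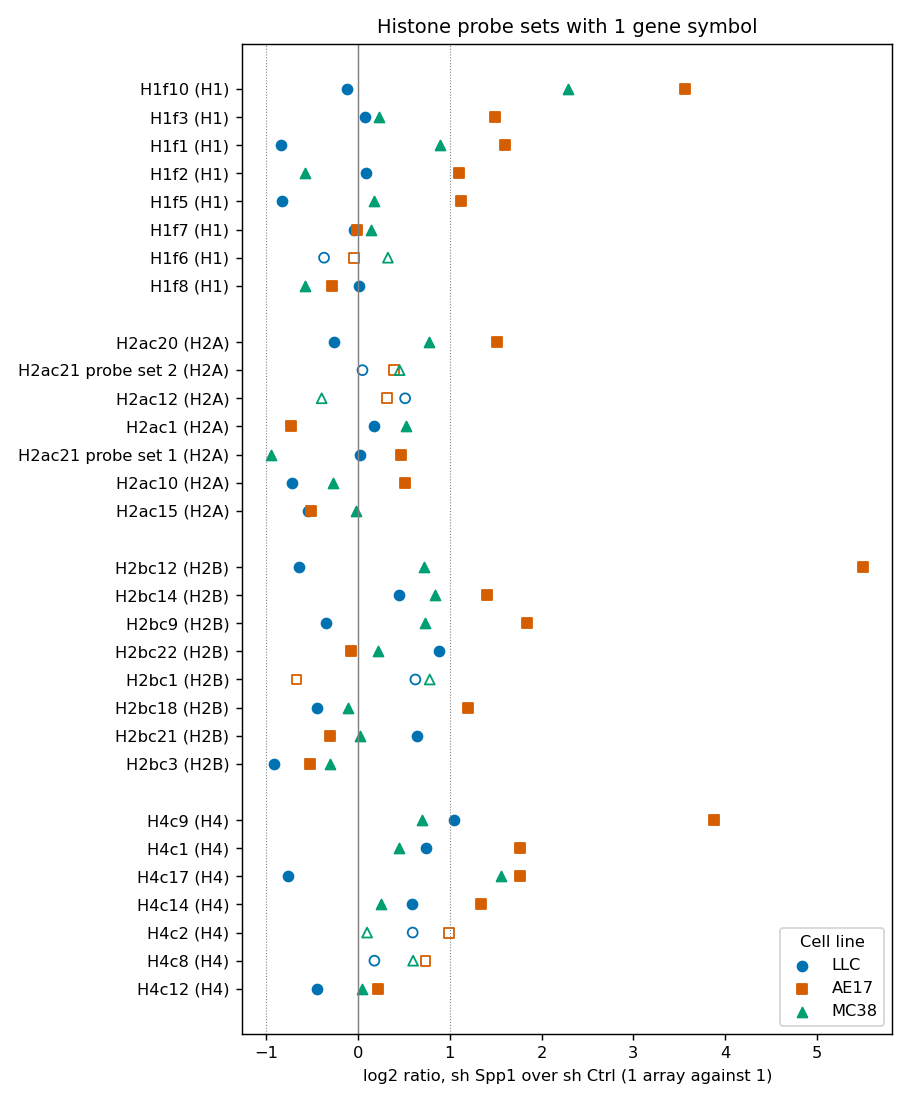
Log2 ratio of sh Spp1 over sh Ctrl (x axis) for the 30 histone probe sets, grouped by type on the y axis, with 1 point per cell line; open points are the 6 probe sets with a mean under the floor, and dotted lines mark -1 and 1. AE17 squares lie farthest right for most genes, up to 5.50 for H2bc12, and 14 of them lie at 1 or above.

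Among the linker histones, H1f10 had the highest ratios in AE17 and MC38, but not in LLC. H1f10 encodes a replication-independent linker histone. The log2 intensity of H1f10 was 8.04 (LLC), 6.44 (AE17) and 6.51 (MC38) with sh Ctrl, and 7.92, 10.00 and 8.80 with sh Spp1. The sh Spp1 array was the higher in AE17 and MC38, with log2 ratios of 3.57 and 2.29, and the LLC arrays differed by -0.12. The mean ratio over the lines was 1.91 ± 1.87 (SD, n = 3), with a limma adjusted p of 0.706 (0.14 to 0.932 over the alternatives). Without AE17 the mean was 1.09, and it was the highest of the 24.

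The somatic S phase linker histones H1f1, H1f2, H1f3 and H1f5 were all higher with sh Spp1 in AE17. H1f1 read 5.62 (LLC), 5.93 (AE17) and 4.68 (MC38) log2 with sh Ctrl, and 4.78, 7.53 and 5.58 with sh Spp1, which puts the LLC array lower and the others higher. The sh Ctrl arrays gave H1f5 log2 intensities of 10.34 (LLC), 10.45 (AE17) and 10.52 (MC38), and the sh Spp1 arrays 9.51, 11.58 and 10.70. For H1f5 the control arrays lay close together, and the sh Spp1 array was lower in LLC and higher in AE17, with ratios of -0.83 (LLC), 1.12 (AE17) and 0.18 (MC38). H1f3 read 7.33 (LLC), 6.65 (AE17) and 6.80 (MC38) log2 with sh Ctrl, and 7.41, 8.14 and 7.03 with sh Spp1, higher in every line, by 0.07 only in LLC (-0.32 as deposited). H1f2 read 9.81 (LLC), 9.41 (AE17) and 9.83 (MC38) log2 with sh Ctrl, and 9.90, 10.51 and 9.26 with sh Spp1. H1f2 was higher in AE17 by 1.10 and lower in MC38, where its ratio was -0.57. Leaving out AE17 turned the mean ratio of H1f2 from 0.21 to -0.24 and that of H1f5 from 0.16 to -0.33.

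The germ cell linker histones were close to the floor. H1f7, of the male germ line, lay between 4.54 and 4.83 log2 on the 6 arrays, with ratios of -0.04 (LLC), -0.01 (AE17) and 0.15 (MC38). The oocyte form H1f8 lay between 4.71 and 5.28, with ratios of 0.01 (LLC), -0.28 (AE17) and -0.58 (MC38). H1f6, expressed in testis, had a mean of 4.36, under the floor, and was not tested. Its ratios were -0.37 (LLC), -0.04 (AE17) and 0.33 (MC38). The 7 tested H1 probe sets had median ratios of -0.04 (LLC, 0.11 when centred), 1.12 (AE17) and 0.18 (MC38).

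H2A genes had the smallest AE17 median of the 4 types, 0.47 over 5 tested probe sets, with -0.26 in LLC and -0.02 in MC38. When centred these were 1.11, 0.20 and 0.45, and without the floor the LLC median was 0.02. H2ac20 was the highest of them. The log2 intensity of H2ac20 was 7.44 (LLC), 6.46 (AE17) and 7.54 (MC38) with sh Ctrl, and 7.18, 7.97 and 8.31 with sh Spp1. The sh Spp1 value was the higher in AE17 and MC38 and the lower in LLC, with ratios of -0.26 (LLC), 1.51 (AE17) and 0.77 (MC38). H2ac10 read 11.63 (LLC), 11.48 (AE17) and 11.58 (MC38) log2 with sh Ctrl, and 10.92, 11.99 and 11.31 with sh Spp1, so all 6 arrays lay within a narrow range at high signal. Its ratios of -0.71 (LLC), 0.51 (AE17) and -0.27 (MC38) differed in sign between the lines.

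The sh Ctrl arrays gave H2ac15 log2 intensities of 8.79 (LLC), 8.98 (AE17) and 8.18 (MC38), and the sh Spp1 arrays 8.25, 8.47 and 8.16. H2ac15 was lower with sh Spp1 in every line, with a mean ratio of -0.36 ± 0.29 (SD, n = 3), though the MC38 values were almost equal and centring turned the mean to 0.22. H2ac1, a form of testis and oocyte, had ratios of 0.18 (LLC), -0.73 (AE17) and 0.52 (MC38). H2ac21 has 2 probe sets. The first gave ratios of 0.02 (LLC), 0.47 (AE17) and -0.94 (MC38), while the second lay under the floor on every array, with ratios of 0.05 (LLC), 0.39 (AE17) and 0.45 (MC38). They differed in sign in MC38. H2ac12 also lay under the floor on every array, between 1.54 and 2.44 log2.

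H2bc12, an H2B gene, had the highest single ratio. The log2 intensity of H2bc12 was 8.19 (LLC), 4.68 (AE17) and 9.61 (MC38) with sh Ctrl, and 7.55, 10.18 and 10.33 with sh Spp1. The AE17 sh Ctrl array stood near the floor and far below the other 5, which lay between 7.55 and 10.33. Its ratios were -0.64 (LLC), 5.50 (AE17) and 0.72 (MC38), so that the mean of 1.86 ± 3.22 (SD, n = 3; limma adjusted p = 0.716, 0.285 to 0.979 over the alternatives) rested on AE17. Without AE17 it was 0.04.

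H2bc14 was the tested H2B gene whose ratio was above 0 in each line, though its LLC ratio was -0.30 as deposited. H2bc14 read 5.64 (LLC), 5.72 (AE17) and 5.49 (MC38) log2 with sh Ctrl, and 6.09, 7.13 and 6.34 with sh Spp1. The sh Spp1 array was the higher in every line, with ratios of 0.45 (LLC), 1.40 (AE17) and 0.84 (MC38). The mean was 0.90 ± 0.48 (SD, n = 3) with an unadjusted limma p of 0.0151, the smallest of the 24, and an adjusted limma p of 0.706 (0.129 to 0.932 over the alternatives).

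H2bc3 ran the other way. The sh Ctrl arrays gave H2bc3 log2 intensities of 10.06 (LLC), 10.62 (AE17) and 10.74 (MC38), and the sh Spp1 arrays 9.15, 10.09 and 10.43. It was lower with sh Spp1 in every line, with a mean ratio of -0.58 ± 0.31 (SD, n = 3), an unadjusted limma p of 0.0351 and an adjusted limma p of 0.706 (0.516 to 0.932 over the alternatives). With each array centred on its median in place of quantile normalisation, its mean turned to 0.11.

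The other H2B genes were mixed. H2bc9 read 5.39 (LLC), 5.45 (AE17) and 5.57 (MC38) log2 with sh Ctrl, and 5.04, 7.29 and 6.30 with sh Spp1, with the AE17 and MC38 arrays higher under sh Spp1 and the LLC array lower. H2bc18 read 9.03 (LLC), 8.96 (AE17) and 9.98 (MC38) log2 with sh Ctrl, and 8.58, 10.16 and 9.88 with sh Spp1, and only the AE17 ratio, 1.20, was above 0. H2bc21 and H2bc22 were higher in LLC, by 0.64 and 0.89, and slightly lower in AE17, at -0.30 and -0.07. H2bc22 read below the floor on both MC38 arrays. H2bc1, a testis form, lay under the floor on all arrays, with ratios of 0.63 (LLC), -0.67 (AE17) and 0.78 (MC38). The 7 tested H2B probe sets had median ratios of -0.34 (LLC, 0.30 when centred), 1.20 (AE17) and 0.22 (MC38). With H2bc1 included, as without the floor, they were 0.05, 0.56 and 0.47.

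**Figure D2:**
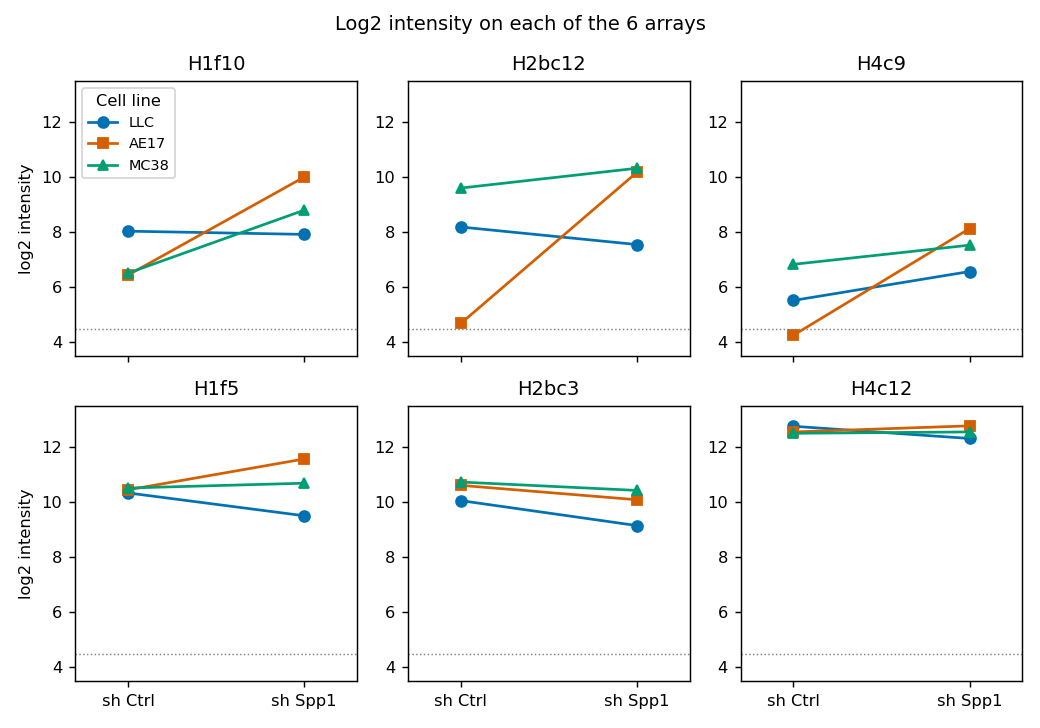
Log2 intensity (y axis) of 6 histone genes on the sh Ctrl and sh Spp1 arrays (x axis), with 1 line per cell line and the floor of 4.49 dotted. H1f10, H2bc12 and H4c9 are higher with sh Spp1 in AE17 by 3.57, 5.50 and 3.88 log2, while H2bc3 is lower in each line (not when centred) and H4c12 stays between 12.32 and 12.78.

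Of the tested probe sets with 1 symbol, H4 was the only type whose median ratio was above 0 in each line. The H4 median was 0.59 in LLC (-0.06 as deposited), 1.76 in AE17 (1.35 without the floor) and 0.44 in MC38 over 5 tested probe sets. When centred, the medians of H1, H2A and H2B were above 0 in each line too. Those of H2B were also above 0 in each line without the floor. The highest H4 ratio was that of H4c9 in AE17. The log2 intensity of H4c9 was 5.52 (LLC), 4.25 (AE17) and 6.83 (MC38) with sh Ctrl, and 6.57, 8.13 and 7.53 with sh Spp1. The sh Spp1 array was the higher in every line, and the AE17 control lay under the floor. Its ratios of 1.05 (LLC), 3.88 (AE17) and 0.70 (MC38) gave a mean of 1.88 ± 1.74 (SD, n = 3; limma adjusted p = 0.706, 0.154 to 0.932 over the alternatives), and without AE17 it was 0.88.

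H4c1 and H4c14 had ratios above 0 in the 3 lines, though that of H4c1 in LLC was -0.06 as deposited. The sh Ctrl arrays gave H4c1 log2 intensities of 4.57 (LLC), 4.21 (AE17) and 4.70 (MC38), and the sh Spp1 arrays 5.31, 5.98 and 5.15. H4c14 read 6.55 (LLC), 6.08 (AE17) and 6.43 (MC38) log2 with sh Ctrl, and 7.14, 7.42 and 6.67 with sh Spp1. For each gene every sh Spp1 value was above its own control, by 0.44 to 1.76 for H4c1 and by 0.25 to 1.35 for H4c14. The 1.76, which is also the H4 median in AE17, is set against a control value under the floor. Their unadjusted limma p values were 0.0256 and 0.0434, and both adjusted limma values were 0.706, with ranges over the alternatives of 0.154 to 0.932 and 0.14 to 0.932.

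H4c17 read 7.31 (LLC), 7.44 (AE17) and 6.96 (MC38) log2 with sh Ctrl, and 6.55, 9.21 and 8.52 with sh Spp1. H4c17 was thus higher in AE17 and MC38 and lower in LLC, with ratios of -0.77 (LLC), 1.77 (AE17) and 1.56 (MC38). The sh Ctrl arrays gave H4c12 log2 intensities of 12.77 (LLC), 12.56 (AE17) and 12.51 (MC38), and the sh Spp1 arrays 12.32, 12.78 and 12.56. H4c12 lay between 12.32 and 12.78 on all arrays, and its ratios were -0.44 (LLC), 0.22 (AE17) and 0.05 (MC38). H4c2 and H4c8 lay under the floor on all 6 arrays, with ratios above 0 in every line, from 0.10 to 0.995 for H4c2 and from 0.18 to 0.74 for H4c8.

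In all 3 lines 5 histone probe sets were higher with sh Spp1 (H1f3, H2bc14, H4c1, H4c9 and H4c14) and 2 were lower (H2ac15 and H2bc3). Of all probe sets tested, 17.3% were higher and 15.3% lower in all lines. The histone counts were 2 and 2 as deposited and 14 and 1 when centred. The shares of all hold for quantile normalisation only. Another 8 of the 24 (33.3%) were lower in LLC and higher in AE17 and MC38, a pattern seen in 10.6% of all. It was chosen after the values were seen, and counted 13 as deposited and 4 when centred. The 10.6% likewise holds for quantile normalisation only. These 8 were H1f1, H1f5, H1f10, H2ac20, H2bc9, H2bc12, H4c12 and H4c17.

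**Figure D3:**
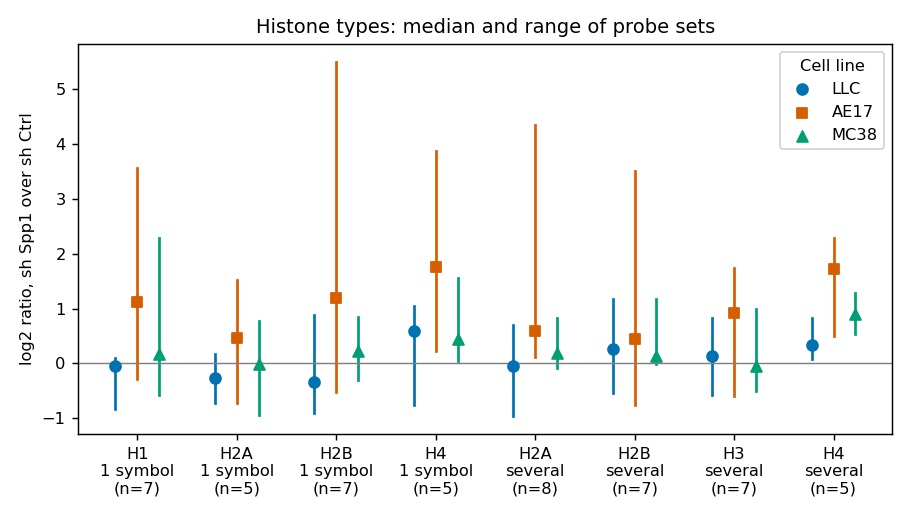
Median (point) and range (line) of the log2 ratio of sh Spp1 over sh Ctrl by histone type and cell line, for probe sets with 1 symbol and for those with several symbols of 1 type; n is the number of probe sets at or above the floor. AE17 has the highest median in every group, from 0.45 to 1.76.

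Probe sets shared by several histone genes could be read for types, H3 included. The 7 H3 ones at or above the floor had median ratios of 0.14 (LLC), 0.91 (AE17) and -0.04 (MC38). For 8 shared H2A probe sets the medians were -0.05, 0.59 and 0.18, for 7 H2B ones 0.25, 0.45 and 0.13, and for 5 H4 ones 0.34, 1.72 and 0.90. All 5 shared H4 probe sets were above 0 in every line, though in LLC only 1 was as deposited. Of the 28 distinct shared probe sets at or above the floor, 13 were higher by at least 1 in AE17, 3 in MC38 and 1 in LLC, where 9.75%, 1.0% and 1.87% of all probe sets were. They name many of the same genes as the single-symbol probe sets, and so add no independent count.

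In AE17 the values could be set against the 4 arrays of the other lines. Of the 14 histone probe sets higher by at least 1 in AE17, the AE17 sh Ctrl value was below all 4 for 7 (50%), and the sh Spp1 value was above all 4 for 12 (85.7%). For all 1723 probe sets higher by that much, the shares were 44.7% and 71.8%. Both held for 5 of the 14 (35.7%), against 25.8% of all.

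Ratios also went with the signal. The 4 tested histone probe sets with a mean of at least 10 log2 (H1f5, H2ac10, H2bc3 and H4c12) had median ratios of -0.77 in LLC, where all 4 were below 0, 0.36 in AE17 and -0.11 in MC38. When centred, 0 of the 4 were below 0 in LLC. The 20 below 10 had medians of 0.02, 1.37 and 0.35. Over all 1465 probe sets at or above 10 the medians were -0.0049, -0.06 and -0.0015. The width of the log2 distribution between its 10th and its 90th percentile was 5.99 to 6.73 over the arrays and was larger on the sh Spp1 array of each pair, and its part in these ratios was not tested.

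**Figure D4:**
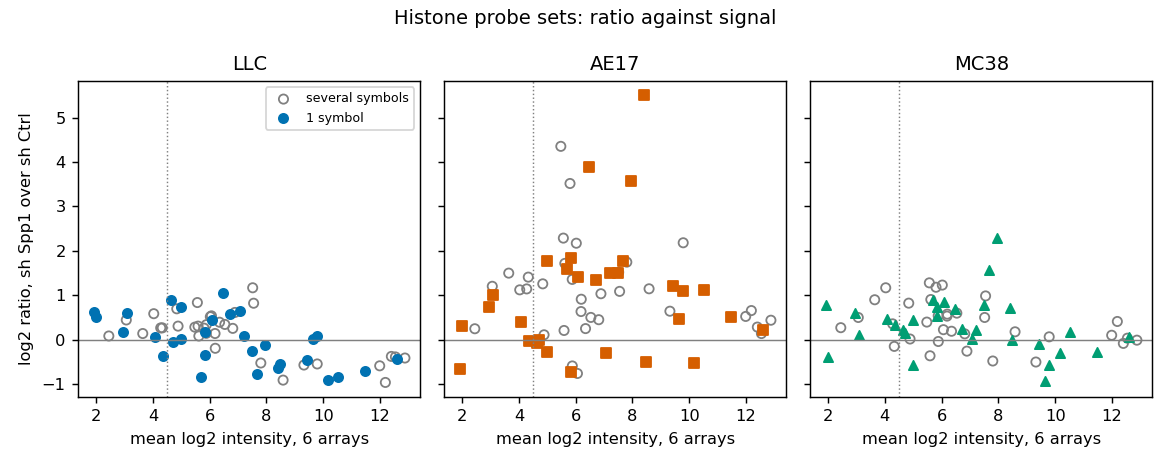
Log2 ratio of sh Spp1 over sh Ctrl (y axis) against the mean log2 intensity over 6 arrays (x axis) for histone probe sets with 1 symbol (filled) and several symbols (open), by cell line; the dotted line is the floor of 4.49. In LLC the probe sets above 10 lie below 0, which centring each array turns for all 4 with 1 symbol, and in AE17 the highest ratios, up to 5.50, belong to probe sets of middle signal.

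Along the chromosomes, the AE17 ratios varied by gene group. RefSeq's order (GRCm38.p6) was split into runs wherever over 5 other genes lay between histone genes, which was chosen after values had been seen. Chromosome 13 holds 4 runs with tested members and chromosome 3 holds 1. The run of 5 genes from H2ac12 to H2bc11 had 2 tested members, H2bc12 and H4c9, with an AE17 median of 4.69. The runs of 19 and 30 genes on chromosome 13 had AE17 medians of 0.67 over 6 and 1.49 over 7 tested members. The chromosome 3 run of 10 genes, with H2ac21, H2bc18 and their neighbours, had 1.20 over 5. H2ac1, the 1 tested member of the last run on chromosome 13, was at -0.73.

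The nearest tested genes outside the run of H2bc12 and H4c9 were Prss16, a serine protease, with 6 genes between and an AE17 ratio of 0.80, and Vmn1r193, a vomeronasal receptor, with 16 between and -0.11. Carmil1, an actin regulator with 1 gene between it and the last run on chromosome 13, had an AE17 ratio of 2.65, where H2ac1 was below 0. The other nearest genes beside the runs had AE17 ratios from -0.89 (Olfr1359) to 0.79 (Bola1). 

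**Figure D5:**
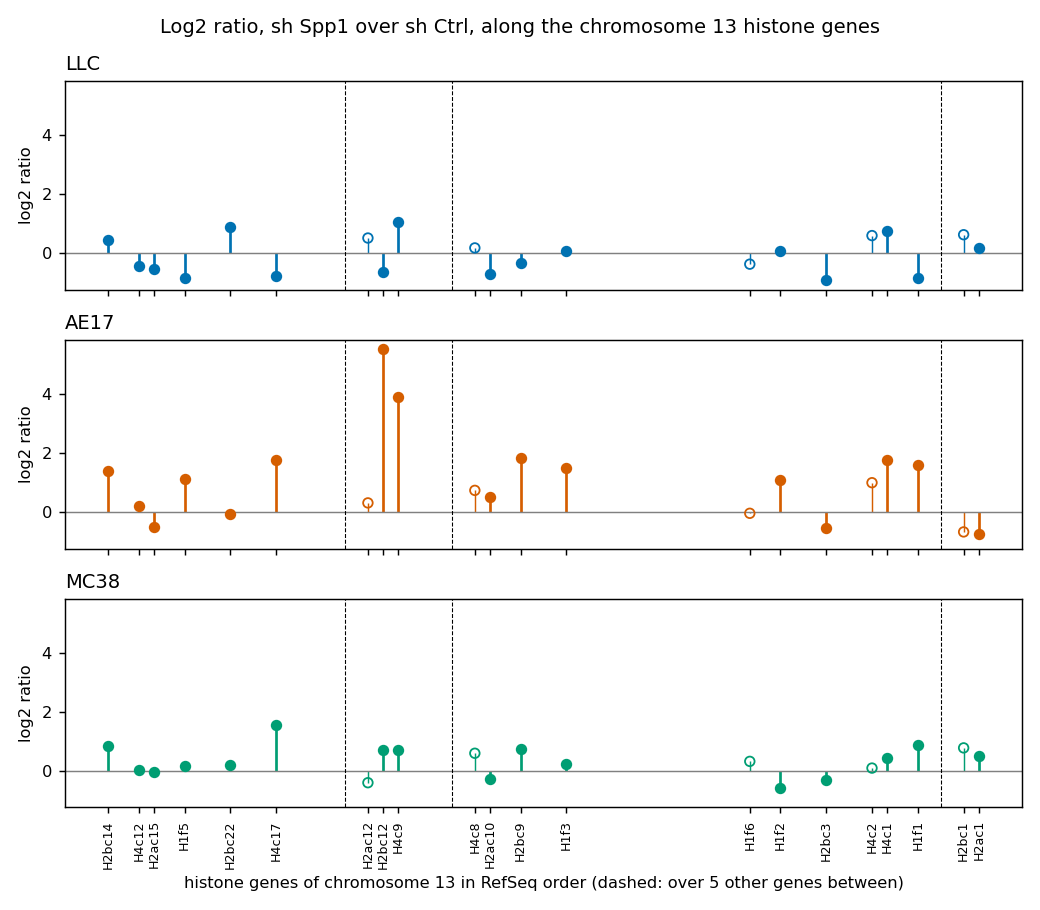
Log2 ratio of sh Spp1 over sh Ctrl (y axis) for histone genes of chromosome 13 in RefSeq order (x axis, by rank), 1 panel per cell line; open points are under the floor and dashed lines separate runs with over 5 other genes between them. In AE17 H2bc12 and H4c9 stand at 5.50 and 3.88. The open point next to them is H2ac12, at 0.31 but under the floor on every array.

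Levels between the lines were compared in the same fit, with the shRNA label as a term. The 2 arrays of a line differ in that label and are no replicate cultures. Limma called 0 histone probe sets in each of the 3 contrasts, and 0% of all in each. At an unadjusted p under 0.05 limma counted 1 histone probe set for AE17 against LLC, 1 for MC38 against LLC and 0 for MC38 against AE17, where all probe sets gave 12.7%, 11.4% and 13.1%. The smallest adjusted limma p values of a histone probe set were 0.351, 0.275 and 0.382. H2bc12 had the widest gap, with a mean of 9.97 in MC38 and 7.43 in AE17 (limma adjusted p = 0.515). That gap lay in the sh Ctrl arrays, at 9.61 in MC38 and 4.68 in AE17. With sh Spp1 the 2 lines read 10.33 and 10.18.

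Among genes that act on histones or belong to their variants, limma called 0 in each of the lists below. Of 7 histone variants other than H1f10, the median ratios were 0.14 in LLC, 0.04 in AE17 and 0.32 in MC38, with -0.29 in LLC as deposited. Macroh2a2, a variant of silent chromatin, had 0.14, 1.47 and 1.21, and H2aj had 0.45, -0.16 and 0.90. H2az2 had -0.86, -0.38 and -0.13, and the centromeric H3 form Cenpa had -0.24, -0.28 and -0.38. H2ax, the variant phosphorylated at DNA breaks, was picked after its values were seen: it had -1.24, 0.86 and 0.74.

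Of 22 genes for histone transcript processing and transcription, 5 were higher and 4 lower in all lines, where 17.3% and 15.3% of all probe sets were. The medians were -0.01, 0.18 and 0.14. Less the median of all probe sets they were -0.04, 0.21 and 0.12, and 0.45, 0.55 and 0.32 as deposited or centred, which turns the LLC sign. Cstf2t, a cleavage factor subunit, had 0.81, 1.63 and 0.88, and Upf1, which degrades histone transcripts at the end of S phase, 0.43, 0.51 and 0.94. Casp8ap2, of the histone locus body, had -0.80, -1.16 and 0.05, and the exonuclease Eri1 -0.47, -1.30 and -0.05. Slbp, named for its role, had -0.83, -0.44 and -0.23.

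Of 18 histone chaperone genes the medians were -0.15, -0.09 and 0.12. Less the median of all probe sets they were -0.18, -0.06 and 0.10, but 0.34, 0.31 and 0.39 as deposited or centred, so the sign in LLC and AE17 turned with the scaling. The importin Ipo4 had 0.32, 1.21 and 0.62, and Ubn1, of the Hira complex, 0.29, 0.63 and 0.66. The acetyltransferase Hat1 had -0.90, -0.74 and -0.17, and the chaperone Asf1b -0.80, -0.83 and -0.08.

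After quantile normalisation, S phase genes were lower with sh Spp1 in LLC, where the median of 38 was -0.69 and 3 were above 0. This median was -0.68 as deposited and 0.11 when centred, so its sign turned with the scaling. Relative to all probe sets it was -0.72, and -0.22 as deposited or centred. The S phase medians were -0.09 in AE17 and 0.01 in MC38, but 0.06 and 0.37 as deposited and 0.51 and 0.55 when centred. Less the median of all probe sets, the AE17 S phase median was -0.05 (0.29 as deposited or centred) beside a histone median of 1.20 (1.51). In MC38 it was -0.0092 (0.30) beside 0.20 (0.22), so the order of the lists there turned with the scaling. Prim2, a primase subunit, had -1.52, -0.81 and -0.23, and Pola1, of polymerase alpha, -0.50, -1.57 and -0.45. The licensing factors Cdt1 and Orc1 had 0.35, 0.49 and 0.74, and 0.09, 0.00 and 0.52.

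Markers of cell types had ratios of both signs in AE17, where 47.5% of all probe sets were above 0. Of 10 tested mesothelial markers 5 were above 0 there. Krt8 and Bnc1 had AE17 ratios of -4.61 and -1.21, and Pdpn and Lrrn4 2.76 and 1.14. Of 5 tested fibroblast markers 4 were above 0. The collagen genes Col1a1 and Col3a1 had 5.09 and 2.29, but the collagen gene Col1a2 had 0.13 and Dcn 0.11, and Pdgfra had -1.14. The log2 of the summed intensity pools these opposite ratios. For the fibroblast markers it was 10.57 with sh Ctrl and 12.43 with sh Spp1 in AE17. It was 10.57 and 9.56 in LLC, and 12.48 and 11.72 in MC38. For the mesothelial markers the sum was 11.38 and 10.34 in AE17, 10.49 and 10.50 in LLC, and 11.18 and 11.22 in MC38. Mesothelin (Msln) read 5.13 and 5.34 log2 in AE17, labelled a mesothelioma, and 9.87 and 9.96 in MC38. The mesothelial Calb2 and the epithelial Epcam lay under the floor on all 6 arrays, while the epithelial Cdh1 reached it on all 6. Of the leukocyte markers Ptprc and Adgre1 lay under the floor on all 6, Itgam reached it on 4, and the macrophage marker Cd68 read 6.51 to 8.71 with an AE17 ratio of 1.40. Of the endothelial markers Tek lay under the floor on all 6. Pecam1, Cdh5 and Kdr reached it on all 6, with AE17 ratios of -1.51, -0.42 and 0.35. The floor is a percentile of mean brightness, so reaching it does not show that a marker was expressed. The colon marker Muc2 and the lung marker Sftpb also reached it on all 6. Of 8 tested colon markers 4 were above 0 in AE17, with Krt20 at -3.04, and of 7 tested lung markers 3 were. The part of these differences in the histone ratios was not tested.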

How the data were processed

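The deposited table holds linear intensities of 41345 probe sets on 6 arrays. RMA is listed in the submitters' processing notes, and GeneSpring GX 12.5 in the design text. The genome build is not given in the sources used here. Median intensity ran from 26.6 to 64.2, so the arrays did not share 1 distribution.

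Values were log2 transformed and quantile normalised with limma 3.58.1 in R 4.3.3, and fitted with lmFit and eBayes with the line as a block. Within a line, ratios are values only. Genes were named from the platform annotation. The fit was tested on simulated data. Python 3.11.15 with matplotlib 3.10.9 drew the figures. The number of arrays limits the precision.

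The members and lists were chosen with earlier results of these data known. Named are all H1 probe sets, the 3 highest and 3 lowest mean ratios of each core type, those with 1 sign in all lines and a ratio of at least 0.5 in each, the 3 highest and 3 lowest per line, and the 2 highest and 2 lowest of each companion list. Picked with their values in view were H2ax, Slbp and the cell type markers named, the GGTCCG motif, the split at 10 log2, the runs of genes, the pattern lower in LLC and higher elsewhere, and 2 added alternatives (quantile normalisation within a line, and type medians with shared probe sets). The remaining probe sets are named to account for every member. Alternatives covered scaling, the brightness filter, the variance prior, array weights, the block, each line left out, the thresholds and shared probe sets. Of the marker lists, that for erythroid cells had 0 named probe sets.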

Additional observations from a re-analysis of the deposited data

Results flagged for a closer look

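The type medians of H2A and H2B had opposite signs between lines. For H2A the median log2 ratio was -0.26 in LLC and 0.47 in AE17. The H2B median was below 0 in LLC (-0.34) and above 0 in AE17 (1.20) and MC38 (0.22). Each line has 1 pair of arrays, so these differences between lines were not tested. With each array centred on its median, both LLC medians were above 0, at 0.20 for H2A and 0.30 for H2B. Without the floor they were 0.02 and 0.05, and the H2B median in AE17 was 0.56.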

How the results depend on the processing

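The count of histone probe sets past an adjusted p of 0.05 was 0 under each alternative run, also without the replicate block and without each line. Without scaling between arrays, 3 histone probe sets passed a log2 ratio of 1 in LLC, all lower, and 4 in MC38, all higher, and the H1 median in LLC was -0.68. Mean ratios that then turned sign were -0.50 for H1f7, 0.14 for H2ac10, 0.081 for the first H2ac21 probe set, -0.0011 for H2bc21, 0.18 for H4c12 and -0.18 for H2bc22. With each array centred on its median, the counts were 3 in LLC and 4 in MC38, all higher, the H1 median in AE17 was 1.81, and the H2A medians were 0.20 in LLC, 1.11 in AE17 and 0.45 in MC38, with a mean of 0.59. Turned means were then -0.025 for H1f7, 0.22 for H2ac15, 0.61 for H2ac10, 0.55 for H2ac21, 0.10 for H2ac1, 0.11 for H2bc3 and 0.66 for H4c12. These scalings shift the median of all probe sets, to -0.47, -0.24 and 0.07 without scaling and to 0.32, 0.22 and 0.25 when centred, in LLC, AE17 and MC38. Less that shift, the histone median was -0.0034, 1.51 and 0.22 under both, against -0.11, 1.20 and 0.20 as reported. Without the floor, the H2B medians were 0.05, 0.56 and 0.47. At 1.5-fold, counted in either direction, 15 histone probe sets passed for AE17, 11 for LLC and 9 for MC38. No share of all probe sets was taken at 1.5-fold, or for the counts without scaling or when centred. Whether those counts exceed the background was thus not tested. The shares of all probe sets given above hold for a log2 ratio of 1 after quantile normalisation only. Leaving out a line in turn, mean ratios ran from -0.49 to 0.12 for H2ac10, -0.14 to 0.33 for H2bc21, -0.20 to 0.14 for H4c12, -0.24 to 0.60 for H1f2, -0.33 to 0.65 for H1f5, -0.28 to 0.35 for H2ac1, -0.28 to 0.55 for H2bc18, -0.029 to 0.068 for H1f7 and -0.46 to 0.25 for H2ac21. Type means ran from 0.07 to 0.65 for H1, -0.14 to 0.23 for H2A, -0.06 to 0.71 for H2B and 0.52 to 1.18 for H4. The cause was not tested.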
